A study of Mus musculus with 15 samples.

Results

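The genes described here encode the endothelial receptors for VEGF (Kdr, Flt1, Flt4) and the angiopoietin receptor pair (Tek, Tie1), with the endothelial surface proteins Pecam1 and Cdh5, the nitric oxide synthase Nos3, the matrix protein Mmrn2 and the lymphatic transcription factor Prox1. The 10 genes were measured by every probe set, a group of short array probes summarised to 1 signal, whose annotation named exactly 1 of them: 20 probe sets of 45101, for 10 of 18194 genes named on the array. Total RNA of whole hearts from male mice of 10 weeks was hybridised to 1-colour expression arrays, 1 array per mouse. A group of 8 control mice was compared with 7 mice heterozygous for Lmna H222P, an amino acid substitution in lamins A and C, proteins of the nuclear lamina, that is studied as a model of laminopathy. The labels name no strain, litter or batch for these numbered mice, so spread is that between these arrays. The genes were proposed with results of this genotype comparison already known, so their differences between the groups are given as a description without a test.

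VEGF proteins bind receptor tyrosine kinases on endothelial cells and drive vessel growth and permeability. KDR carries most of the growth signal, FLT1 binds VEGF tightly and acts largely as a trap, and FLT4 serves the lymphatic ligands VEGF-C and VEGF-D. Angiopoietins act through TEK, also called TIE2, which keeps mature vessels quiet, and TIE1 pairs with TEK and modulates it. In the heart, a dense capillary bed runs along the muscle fibres, so endothelial transcripts are part of whole-heart RNA. In RNA of a whole organ, fewer cells of a type and less RNA per cell cannot be told apart.

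Promoter sequences of 3 receptors are shown because Kdr and Flt1 had higher mean signals in heterozygous hearts in their brightest probe sets and Tie1 did not. Tek, whose mean signal was also higher, is given by motif counts only. RefSeq entries of build GRCm38.p6 were matched by symbol for 6 of the 10 genes (Kdr, Flt1, Flt4, Tek, Tie1 and Prox1). The 250 bases before the listed start are printed 5′ to 3′ on the gene's strand, with GGAA or its reverse complement TTCC, the core of ETS factor motifs, in capitals. Kdr is taken from chr5:75978456-75978705 on the minus strand, Flt1 from chr5:147726012-147726261 on the minus strand and Tie1 from chr4:118489850-118490099 on the minus strand. The windows of Kdr and Flt1 lie inside the full RefSeq spans of these genes, which reach farther upstream.
Kdr: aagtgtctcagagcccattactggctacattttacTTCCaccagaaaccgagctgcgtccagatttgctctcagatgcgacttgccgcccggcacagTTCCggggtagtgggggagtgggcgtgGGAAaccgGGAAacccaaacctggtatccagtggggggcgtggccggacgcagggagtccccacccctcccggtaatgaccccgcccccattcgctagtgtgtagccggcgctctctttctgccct
Flt1: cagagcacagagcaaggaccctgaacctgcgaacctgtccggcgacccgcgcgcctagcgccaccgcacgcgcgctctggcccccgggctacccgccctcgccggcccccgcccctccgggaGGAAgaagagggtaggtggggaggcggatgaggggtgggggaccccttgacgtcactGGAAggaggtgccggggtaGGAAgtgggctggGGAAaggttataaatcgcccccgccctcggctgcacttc
Tie1: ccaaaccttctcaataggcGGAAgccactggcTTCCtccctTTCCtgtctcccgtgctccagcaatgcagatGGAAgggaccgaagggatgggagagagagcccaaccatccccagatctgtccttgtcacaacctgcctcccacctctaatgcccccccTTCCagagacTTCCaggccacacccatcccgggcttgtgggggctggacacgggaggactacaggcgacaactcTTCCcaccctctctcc
GGAA occurred 4 times in the Kdr window, 4 times in that of Flt1 and 7 times in that of Tie1, on either strand, against a median of 3 over 32851 promoter windows of the same length. At least 1 GGAA was present in 93.4% of all windows, and the windows of Flt4 and Tek held 2 each. The GC box GGGCGG occurred 2 times in Kdr, 3 times in Flt1 and 3 times in Flt4 but 0 times in Tie1 and Tek, and 32.7% of all windows held it. Flt1 alone among the 5 receptors held a TATA box (TATAAA, in 12.4% of all windows) and the cAMP response element TGACGTCA (in 1.55%). The GATA element GATAAG (6.55% of windows) and the hypoxia element core ACGTG (16.6%) were in none of the 5. All motifs were searched on both strands, and none of them contains another. A match in these letters is a description only.

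Values are signal units on the deposited linear scale, and a difference is the mean log2 signal of heterozygous minus that of control hearts with its standard error from limma's fit across all 38870 probe sets tested. Over all tested probe sets the median difference was -0.11, and it became 0.10 when each array was centred on its own median and -0.02 after quantile normalization. A member's difference is therefore read against that shift. All 20 probe sets passed the filter on weak signals. A probe set was called where limma's Benjamini-Hochberg adjusted p was under 0.05, which held for 0.252% of all probe sets tested and for 1 of the 20, in Mmrn2. Of all probe sets tested, 0.0900% were called higher and 0.162% lower in heterozygous hearts. Groups did not overlap in 0.468% of all probe sets (0.188% with heterozygous higher and 0.280% with heterozygous lower) and in the same 1 of the 20. Since the genes were chosen from this comparison, nothing is read from these counts. The median difference of the 20 was 0.17, with 13 above 0 and 7 below. After median centring 16 were above 0, and after quantile normalization 12. Of all probe sets tested, 39.9% were above 0 as deposited, 58.4% after median centring and 48.3% after quantile normalization.

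**Figure D1:**
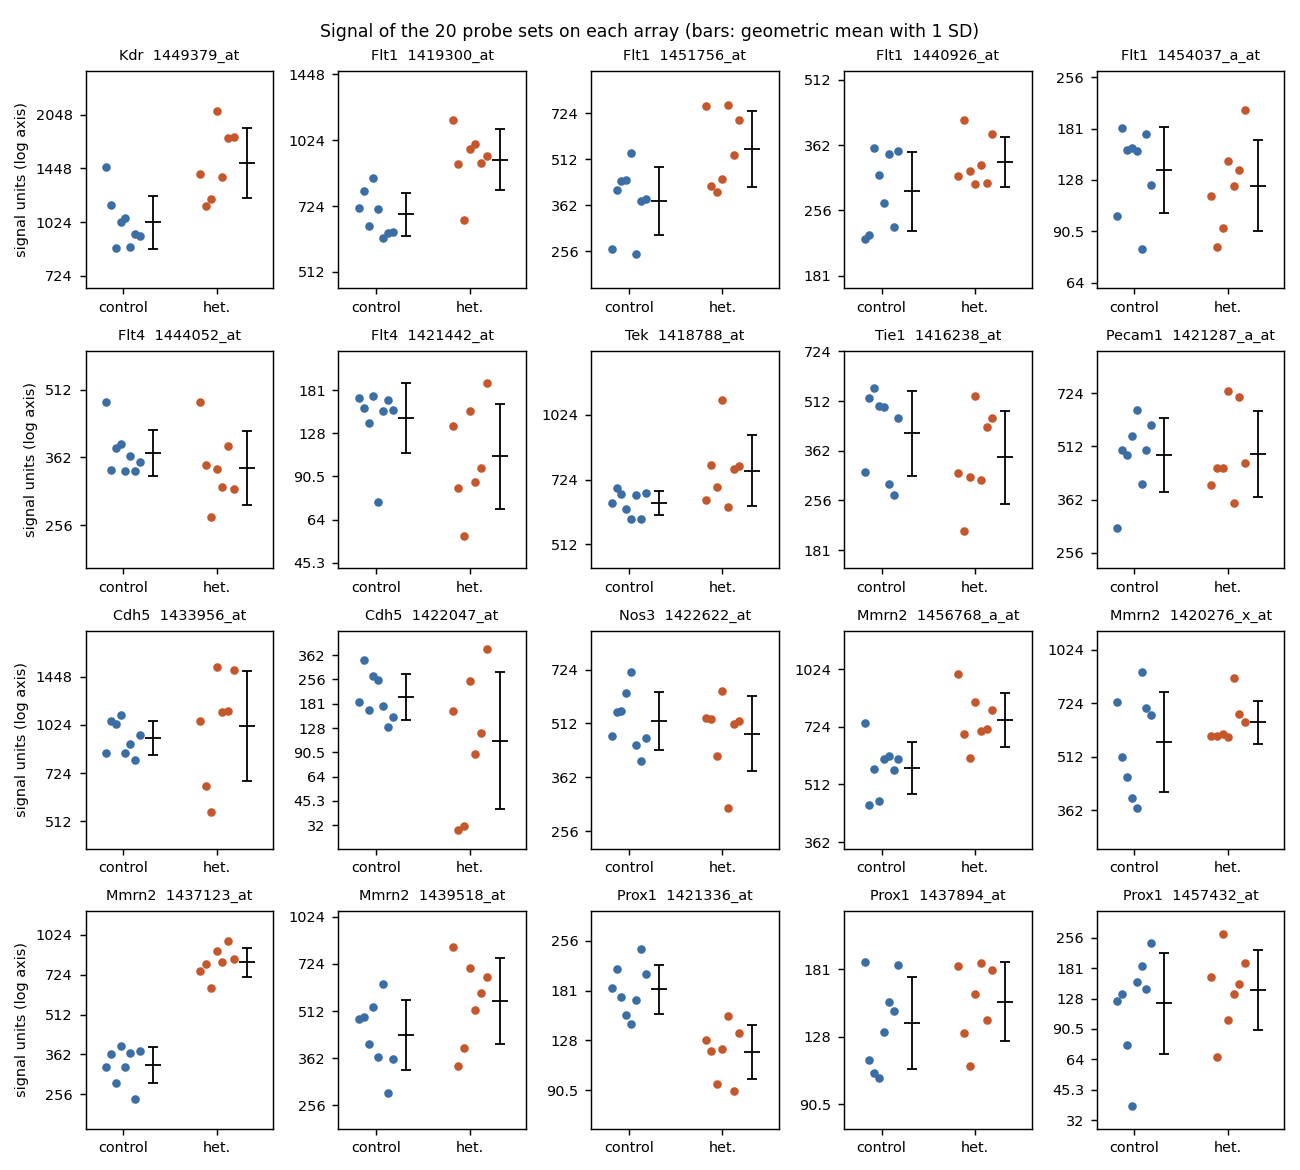
Signal of each of the 20 probe sets on each array, on a log axis, with control arrays in blue and heterozygous (het.) arrays in orange; black bars give the geometric mean with 1 SD of the log2 values (8 control and 7 heterozygous arrays). The groups separate completely in Mmrn2 probe set 1437123_at, and Cdh5 probe set 1422047_at shows heterozygous arrays as low as 29.8 units.

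Among the VEGF receptors, Kdr (chromosome 5, 75932827 to 75979072, GRCm38.p6), the main signalling receptor, had 1 probe set. The lowest, median and highest Kdr signals were 868, 985 and 1460 units on control arrays and 1138, 1399 and 2091 on heterozygous arrays. The upper end of the controls overlapped the lower heterozygous arrays, and 3 of 7 heterozygous arrays lay above every control. The geometric means of 1024 and 1495 units differed 1.46-fold, with mean log2 signals of 10.00 ± 0.25 (SD, n = 8) and 10.55 ± 0.33 (SD, n = 7) and a difference of 0.55 ± 0.17 (SE). Left out in turn, single arrays moved this difference between 0.47, without heterozygous array 4, and 0.62, without control array 1.

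Flt1 (chromosome 5, 147561604 to 147726438), the decoy-like receptor, had 4 probe sets that did not move alike. Probe set 1419300_at had a lowest, median and highest signal of 611, 683 and 841 units in control and 672, 941 and 1136 units in heterozygous hearts. Of the heterozygous arrays, 6 of 7 lay above every control, and only array 3 fell inside the control range. Its difference was 0.42 ± 0.14 (SE), or 1.33-fold, and probe set 1451756_at, with 252 to 536 units against 402 to 769, gave 0.57 ± 0.21. The other probe sets, 1440926_at and 1454037_a_at, overlapped widely and gave 0.23 ± 0.16 and -0.15 ± 0.23. Over the 15 arrays, with group means subtracted, 1451756_at and 1454037_a_at followed each other (r = 0.66), whereas 1440926_at did not follow 1419300_at (r = -0.23). Flt1 is known to be spliced into membrane-bound and soluble forms, and the annotation used here does not say which of them each probe set reads.

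Flt4 (chromosome 11, 49609679 to 49652739), the receptor of lymphatic growth factors, had differences below 0 in both of its probe sets on the deposited scale. Signals of 1444052_at ran from 337 to 480 units in control and from 267 to 480 in heterozygous hearts, with a difference of -0.11 ± 0.14 (SE) that equals the median of all probe sets. The weaker 1421442_at had a lowest, median and highest signal of 73.6, 156 and 173 units in control and 56.2, 96.8 and 191 in heterozygous hearts. The groups overlapped over most of the range, and the difference was -0.44 ± 0.26. After median centring 1444052_at stood at 0.09 and 1421442_at at -0.23.

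In the angiopoietin receptor pair, Tek (chromosome 4, 94739086 to 94874976) had narrow control values. Its lowest, median and highest signals were 586, 653 and 692 units in control and 624, 765 and 1109 in heterozygous hearts. On 5 of 7 heterozygous arrays the signal exceeded every control, and the difference was 0.25 ± 0.13 (SE), or 1.19-fold. Heterozygous array 4, at 1109 units, stood well above the next array at 785, and without it the difference was 0.16. Tie1 (chromosome 4, 118471191 to 118489849), the partner receptor of TEK, lay the other way, with 266, 474 and 559 units in control and 207, 311 and 531 in heterozygous hearts. No heterozygous array exceeded the controls, 1 lay below all of them, and the difference was -0.24 ± 0.23. Without heterozygous array 2, the lowest, it was -0.12. Centring on the median brought Tie1 to -0.04, and on both scales it stood below the median of all probe sets.

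The endothelial surface proteins Pecam1 and Cdh5 showed no shared direction. Pecam1 (chromosome 11, 106654213 to 106715281), an adhesion molecule also carried by platelets and leukocytes, measured 301, 500 and 647 units (lowest, median and highest) in control and 353, 445 and 733 in heterozygous hearts. The ranges overlapped almost wholly, and the difference was 0.01 ± 0.20 (SE). Cdh5 (chromosome 8, 104101613 to 104144504), the VE-cadherin of endothelial adherens junctions, had a bright probe set, 1433956_at, with 798, 922 and 1103 units in control and 547, 1120 and 1549 in heterozygous hearts. Here 4 heterozygous arrays lay above and 2 below every control, so the spread widened from an SD of 0.17 to 0.57 (log2) around a difference of 0.13 ± 0.22. The weak Cdh5 probe set 1422047_at spanned 130 to 339 units in control and 29.8 to 394 in heterozygous hearts, with a difference of -0.89 ± 0.50. Both probe sets of Cdh5 followed each other over the arrays (r = 0.90, group means subtracted) even though their differences had opposite signs.

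Nos3 (chromosome 5, 24364816 to 24384474), which makes the nitric oxide that relaxes vessels, showed no clear separation. The lowest, median and highest signals were 403, 511 and 715 units in control and 297, 521 and 630 in heterozygous hearts. The heterozygous range ran lower at both ends, with array 5 lowest at 297 units, and the difference was -0.12 ± 0.18 (SE). Without heterozygous array 5 it was -0.0037. After median centring Nos3 stood at 0.09.

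Mmrn2 (chromosome 14, 34375504 to 34404287), a secreted endothelial matrix protein that binds CD93 and CLEC14A and can hold VEGF, had 4 probe sets. Probe set 1437123_at had a lowest, median and highest signal of 247, 344 and 391 units in control and 647, 808 and 969 in heterozygous hearts. Every heterozygous array was above every control. The means were 8.37 ± 0.23 (SD, n = 8) and 9.66 ± 0.19 (SD, n = 7) in log2 signal, a difference of 1.29 ± 0.14 (SE) or 2.44-fold, which stayed between 1.23 and 1.34 in the 15 fits that left out 1 array each.

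The other Mmrn2 probe sets were also above 0, by less. Signals of 1456768_a_at ran from 452 to 743 units in control and from 600 to 993 in heterozygous hearts (0.42 ± 0.15, SE), and those of 1439518_at from 281 to 624 and from 343 to 820 units (0.36 ± 0.22). Both of these come from the same expressed sequence tag. In 1420276_x_at, of a probe set type that can share probes with other transcripts, control arrays ran from 368 to 889 units and heterozygous arrays from 582 to 854, at 0.18 ± 0.20. Probe set 1437123_at followed 1439518_at over the arrays (r = 0.54) but not 1456768_a_at (r = -0.03). RefSeq lists no other gene overlapping Mmrn2. None of the tested probe sets of its 3 nearest protein-coding neighbours on each side (Glud1, Fam25c, Sncg, Bmpr1a, 9230112D13Rik and Ldb3) was called, and Sncg, the nearest, stood at -1.68 ± 0.60 on a control geometric mean of 78.7 units.

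Prox1 (chromosome 1, 190118035 to 190170827), the factor that sets lymphatic endothelial identity and is also made by heart muscle cells, had lower mean signal in heterozygous hearts in its brightest probe set. Probe set 1421336_at measured 143, 179 and 242 units (lowest, median and highest) in control and 90.0, 121 and 151 in heterozygous hearts. On 6 of 7 heterozygous arrays the signal lay below every control. The geometric means were 182 and 118 units, and the difference was -0.63 ± 0.16 (SE). Its other probe sets pointed up, 1437894_at with 104 to 188 against 110 to 187 units (0.16 ± 0.18) and 1457432_at with 37.7 to 241 against 65.6 to 267 (0.22 ± 0.37), so the probe sets of Prox1 disagreed in sign on all 3 scalings.

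**Figure D2:**
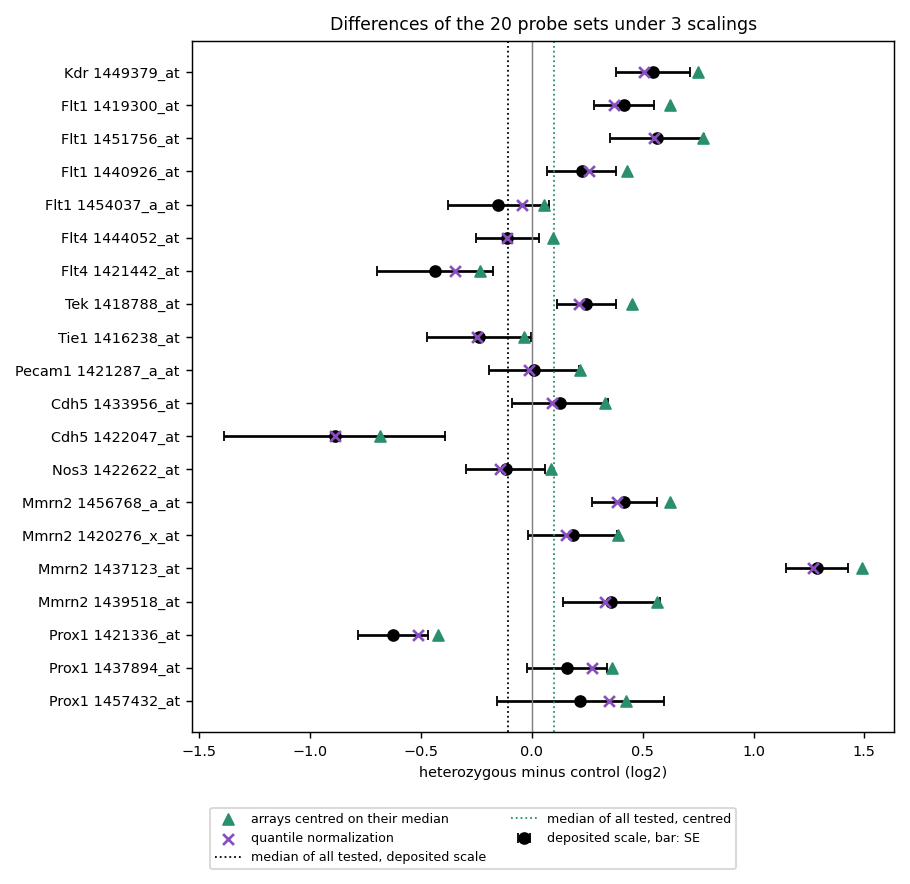
Difference of each probe set, heterozygous minus control in log2 units, on the deposited scale (black circles, bars give 1 SE), after centring each array on its median (green triangles) and after quantile normalization (purple crosses); dotted lines give the median of all tested probe sets, -0.11 as deposited and 0.10 when centred. Mmrn2 1437123_at lies farthest right at 1.29 and Cdh5 1422047_at farthest left at -0.89.

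The signals were set against a measure of RNA integrity. The ratio of the 3′ to the 5′ control probe set of Actb, which grows as RNA breaks, ran from 1.23 to 2.34 on control and from 1.26 to 3.23 on heterozygous arrays. It exceeded 2 on control array 6 and on heterozygous arrays 2, 3 and 5. Heterozygous arrays 2 and 3 were also the lowest in the weak Cdh5 probe set, at 29.8 and 31.7 units. With group means subtracted, 16 of the 20 probe sets had r below 0 with this ratio over the 15 arrays. That count takes any sign, down to r = -0.01 for Prox1 1437894_at, and the share over all probe sets is not given here. By permutation of r, 3 of the 20 had an unadjusted p under 0.05, and 1 after adjustment. These counts too lack a share over all probe sets, so they are not read as particular to these genes. For Flt1 1454037_a_at Pearson's r was -0.75 and Spearman's rho -0.61, with permutation p of 0.00128 and 0.0167, which became 0.0256 and 0.222 after Benjamini-Hochberg adjustment over 40 relations. Without the 2 arrays farthest out in the ratio that r was -0.56. Tie1 had r = -0.65 and rho = -0.56 (adjusted permutation p = 0.0967 and 0.284), and its r was -0.43 without those arrays.

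Without the 4 arrays of high ratio, a choice made after seeing the data that left 7 control and 4 heterozygous arrays, most values below 0 came closer to 0. The weak Cdh5 probe set went from -0.89 to 0.05, Flt4 1421442_at from -0.44 to -0.03, Tie1 from -0.24 to -0.02 and Flt1 1454037_a_at from -0.15 to -0.01. Among those above 0, Kdr stood at 0.73, Flt1 1419300_at at 0.48, Tek at 0.35, the bright Cdh5 probe set at 0.46 and Mmrn2 1437123_at at 1.39. Prox1 1421336_at stood at -0.65. Heterozygous arrays 2, 3 and 5 had been the lowest of their group in Flt4 1421442_at and Tie1, and arrays 2 and 3 in both Cdh5 probe sets. Upward moves of these probe sets therefore follow in part from the choice of arrays. The values describe fewer arrays and are given without the median shift of all probe sets on them. The part of RNA integrity in the differences was not tested.

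**Figure D3:**
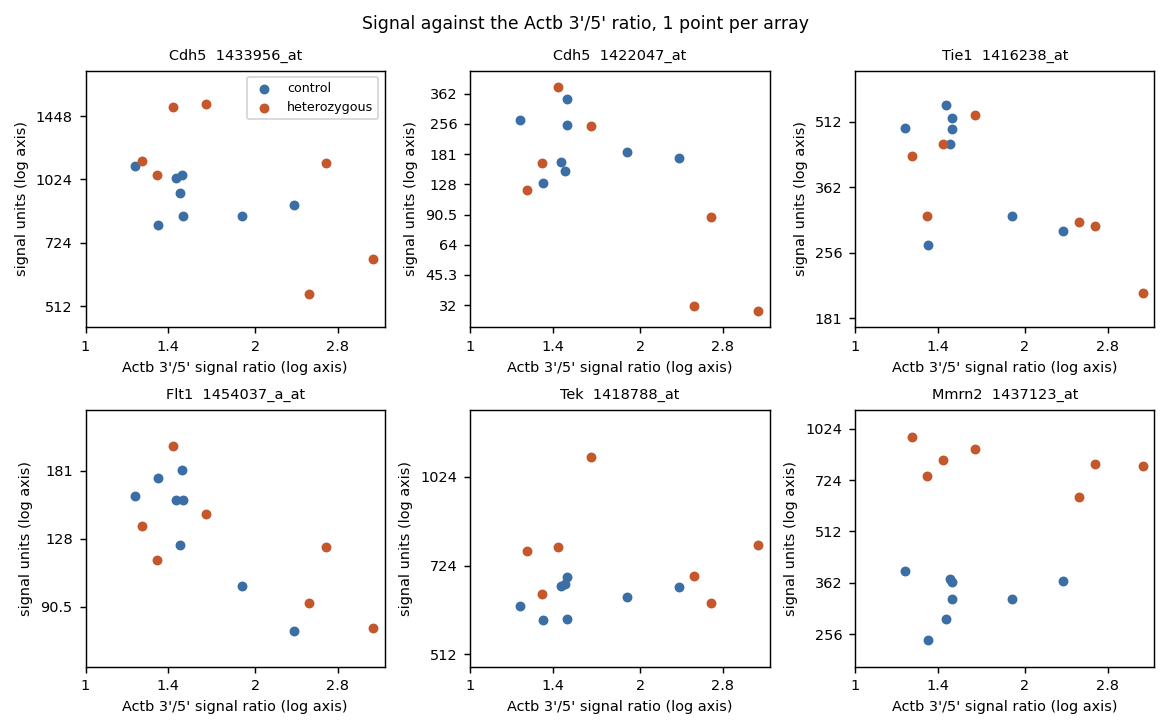
Signal of 6 probe sets against the Actb 3′ to 5′ signal ratio, 1 point per array, both axes logarithmic, control in blue and heterozygous in orange. Heterozygous arrays 2 and 3, with ratios of 3.23 and 2.49, are the lowest of their group in both Cdh5 probe sets, while heterozygous arrays of Mmrn2 1437123_at lie above the controls at every ratio.

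The way the genes varied together among arrays does not use the difference between groups. For the brightest probe set of each gene, with group means subtracted, 34 of 45 pairs were positively correlated and the median r was 0.25. No such share was computed for pairs of other genes on these arrays. The counts of pairs are therefore not read as particular to these genes. Tie1 and Cdh5 gave the smallest permutation p of the 45 pairs, with r = 0.70 and rho = 0.83 over 15 arrays. Their permutation p of 0.00260 and 0.000320 became 0.117 and 0.0144 after Benjamini-Hochberg adjustment over the 45 pairs. The r was 0.75 among the 8 controls, 0.79 among the 7 heterozygous arrays and 0.60 without the 2 arrays farthest out in Tie1. Both ran against the Actb ratio over the same arrays, Tie1 as given above and this Cdh5 probe set, 1433956_at, with r = -0.61 and rho = -0.58 (adjusted permutation p = 0.263 and 0.284, and r = -0.52 without the 2 arrays farthest out in the ratio). The part of RNA integrity in the pair was not tested. At an unadjusted permutation p under 0.05 there were 7 pairs by r, 5 of which held Tie1 or Cdh5, and after adjustment 0 pairs by r and 1 by rho. Centring arrays on their median raised the median r to 0.60, since it adds the same amount to every gene of an array.

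The mean of the 19 other endothelial markers tested gave a further reading. Nos3 followed it, with r = 0.78 and rho = 0.74 (permutation p of 0.000700 and 0.00280, adjusted to 0.0256 and 0.112 over 40 relations), and with r = 0.79 in each group taken alone. Without the 2 arrays farthest out in that mean r was 0.64. Prox1 1421336_at ran against it (r = -0.68 and rho = -0.68, adjusted permutation p = 0.0967 and 0.205, and r = -0.49 without those 2 arrays). Kdr gave r = 0.07 and rho = 0.15 (adjusted permutation p = 0.880 and 0.771).

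By the highest correlation over the 15 arrays with group means subtracted, the 3 named genes most like each member were none of the other members. They were Phf20, Tmcc2 and Srp72 for Kdr (r from 0.85 to 0.86), Igfbp7, Bri3 and Lpcat1 for Flt1 (0.86 to 0.87), Fxyd6, Tpd52l2 and Cxcl12 for Flt4 (0.81 to 0.86) and Usp21, Acad12 and Cdkn1b for Tek (0.84 to 0.86). Tie1 was nearest to Med9, Kcnk3 and Mapk14 (0.92 to 0.95), Pecam1 to Gstz1, Macf1 and Sec31a (0.91 to 0.93), and Nos3 to Ppp1r37, Rhoc and Necap2 (0.92 to 0.93). For Cdh5 they were Dock1, Heyl and Xaf1 (0.89 to 0.90), for Mmrn2 Lig4, Exosc9 and Ywhab (0.81 to 0.89), and for Prox1 F8, Kcnk4 and Grip1os1 (0.82 to 0.83). Each is the best of 38870 probe sets, and arrays share their scaling, so values of this size are a description.

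Genes around these receptors were read from 8 vascular lists with 95 tested genes besides the 10. Limma called 0 of the 95 in their brightest probe set, and 12 had an unadjusted p under 0.05, 9 higher and 3 lower. These were 12.6%, against 15.2% of all named genes tested. Of all 16627 named genes, 48 were called, 798 were higher and 1729 lower at that unadjusted p, and 6900 were above 0. The median difference was -0.08 over all named genes and 0.06 over the 95, of which 58 were above 0. Among their 205 probe sets 1 was called, a weak probe set of the junction adhesion gene Jam2, at 14.1 against 53.5 units (geometric means) with an adjusted p of 0.0255, while its brightest stood at 0.06. Controls of the called probe set ran from 6.9 to 27.5 units, with a mean log2 signal of 3.82, below the filter's 4. The 7 heterozygous arrays, at 36.5 to 88.7 units, met the filter by themselves, so nothing is read from this call. That call was lost, at an adjusted p of 0.0849 by limma, without the 4 arrays of high Actb ratio, and it held in 9 of the 15 fits that left out 1 array.

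Of 7 VEGF ligands and neuropilins, 5 were above 0 and 0 were called, with 3 at an unadjusted p under 0.05. Vegfa, a ligand of KDR and FLT1, and Vegfb, a ligand of FLT1, stood at 0.01 ± 0.13 and -0.01 ± 0.22 (SE). Vegfc, a ligand of FLT4, went from 185 to 260 units (geometric means, adjusted p = 0.242), Vegfd from 76.9 to 111 (adjusted p = 0.326) and Pgf, a ligand of FLT1, from 24.0 to 59.1 (adjusted p = 0.305) by limma. Of 7 angiopoietins and TIE2 partners 2 were above 0, with a median of -0.26. Angpt1, the activating ligand, had 678 and 940 units (adjusted p = 0.363), Angpt2, its antagonist in many settings, 117 and 97.5 (adjusted p = 0.618), and the phosphatase Ptprb that acts on TIE2 differed by 0.02 ± 0.15. The weaker Angpt1 probe set stood at -0.41 ± 0.70. The adaptor Dok2 stood at -0.38 (adjusted p = 0.479). Limma called 0 in that list, and 0 had an unadjusted p under 0.05.

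In the VEGF receptor relay 0 of 12 were called and 2 had an unadjusted p under 0.05, with Pik3r1 at 0.33 (adjusted p = 0.334) and Hspb1 at -0.28 (adjusted p = 0.323) by limma. The nitric oxide list had 0 of 12 called and 1 at an unadjusted p under 0.05, Nos1, the neuronal synthase, at 261 against 168 units (adjusted p = 0.194). Gucy1b1, a subunit of the nitric oxide receptor, stood at 0.24 (adjusted p = 0.426), and its weaker probe set at -0.18. Among 13 junction genes and MMRN2 partners 0 were called in their brightest probe set and 1 had an unadjusted p under 0.05, F11r, at 567 against 865 units (adjusted p = 0.0780). F11r, which encodes a junction adhesion molecule, was called in 4 of the alternative fits, with an adjusted p of 0.0347 under the stricter filter. Its weaker probe set stood at -0.23 ± 0.39. Cd93 and Clec14a, the receptors that bind MMRN2, stood at -0.38 ± 0.19 (adjusted p = 0.360) and 0.07 ± 0.19 in their brightest probe sets. The other Cd93 probe sets were also below 0, at -0.39, -1.20, -1.90 and -1.05, and none was called. Of these, 1441907_s_at had 114 against 30.5 units (geometric means, limma's adjusted p = 0.0703). Without the 4 arrays of high Actb ratio the brightest Cd93 probe set was at -0.058.

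Endothelial transcription factors had 0 of 16 called and 2 at an unadjusted p under 0.05, Sox18 at 763 against 1258 units (adjusted p = 0.286) and Etv2 at 30.4 against 70.9 (adjusted p = 0.214). Erg, an ETS factor of endothelial cells, stood at 0.07 ± 0.15 (SE) and Fli1 at -0.18 ± 0.24. The 19 other endothelial markers had a median of 0.07, 13 above 0 and 0 called by limma, with 3 at an unadjusted p under 0.05. Plvap, the diaphragm protein, stood at 1.15 (adjusted p = 0.224) and the lipid receptor gene S1pr1 at -0.72 (adjusted p = 0.230). Of 11 lymphatic markers 8 were above 0 and 0 were called, with 1 at an unadjusted p under 0.05, Vegfc. Itga9 stood at 0.52 (adjusted p = 0.466) and the lymphatic receptor Lyve1 at 0.10 ± 0.21. The weaker Itga9 probe set stood at -0.81 ± 0.58.

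**Figure D4:**
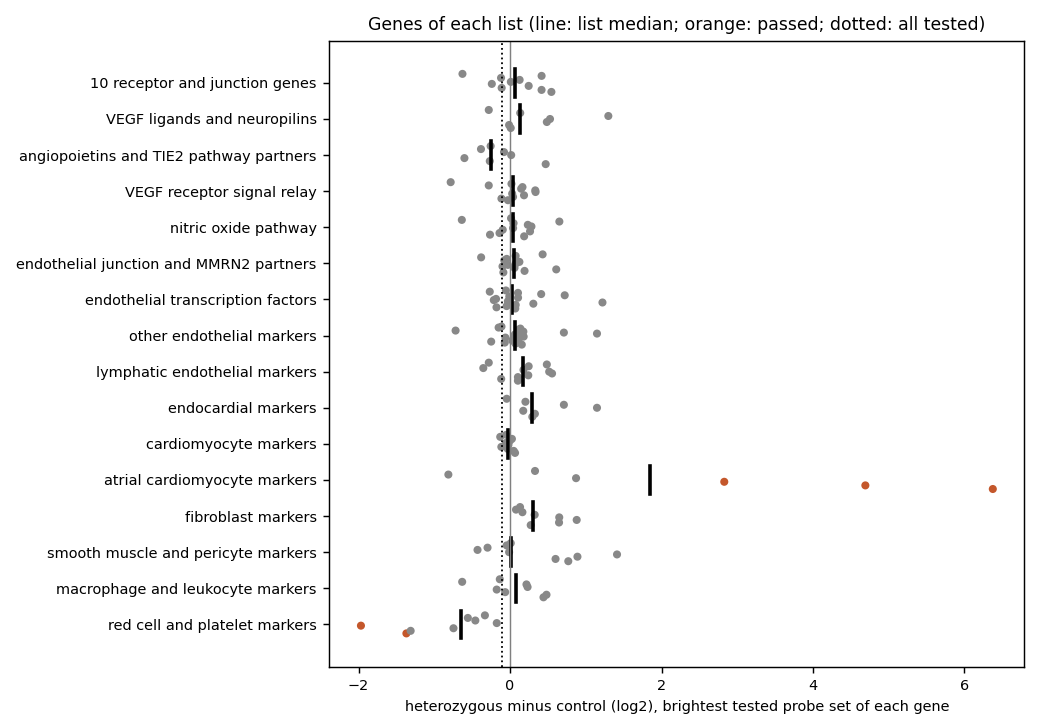
Difference of each gene, heterozygous minus control in log2 units of its brightest tested probe set, by list; black lines are list medians, orange points passed limma's adjusted p under 0.05, and the dotted line is the median of all tested probe sets, -0.11. The 8 vascular lists have medians from -0.26 to 0.18 with no called gene, while the 3 called atrial markers lie above 2 and the 2 called blood markers below -1.

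Markers of other cell types were read on the same arrays, and their part in the receptor values was not tested. Heart muscle was present on every array, with the summed signal of 10 cardiomyocyte markers at 172382 to 497516 units in control and 135834 to 336485 in heterozygous hearts and 0 called (0 at an unadjusted p under 0.05). Mybpc3 and Actn2 stood at -0.13 and -0.11 (adjusted p = 0.764 and 0.776). Of 6 atrial markers 5 were above 0, and Sln, Myl7 and Myl4 were called higher (limma's adjusted p = 0.0122, 0.0255 and 0.0298). These calls held in 15, 10 and 7 of the 15 fits without 1 array. Bmp10 stood at -0.81, and the other probe sets of Sln and Myl4 at -0.94 and -0.07. On every control array but array 6, Sln was at most 12.2 units, below a log2 signal of 4. It thus passed the filter only through its heterozygous signals of 241 to 5110 units. With a floor at a log2 signal of 6 its difference went from 6.37 to 3.40. The summed atrial signal ran from 6221 to 11192 in control and from 7400 to 40261 in heterozygous hearts. Endocardial markers, 7 tested with 6 above 0 and 0 called, summed to 1159 to 1902 units against 1646 to 2146, with Vwf at 0.71 (adjusted p = 0.275) and 2 at an unadjusted p under 0.05. Those 2, Plvap and Vwf, are also on the list of other endothelial markers, so they are no separate reading. All 8 fibroblast markers were above 0 in their brightest probe set, 0 were called and 4 had an unadjusted p under 0.05. Their sums over those probe sets did not overlap, at 13284 to 17710 against 18804 to 30350. The smallest p of these 8 were those of Dcn at 0.88 (limma's adjusted p = 0.0630) and Pdgfra at 0.65 (adjusted p = 0.117). Weaker probe sets of both genes pointed down, at -0.47 for Dcn and at -0.18 and -0.38 for Pdgfra. Dcn, the brightest of the 8 at 6487 against 11941 units (geometric means), weighs most in the sums. Col3a1, Ddr2 and Lum stood at 0.08, 0.13 and 0.16.

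Blood transcripts lay the other way, with sums of 3732 to 4550 units in control and 1867 to 3503 in heterozygous hearts over 8 red cell and platelet markers. Ppbp and Alas2 fell (limma's adjusted p = 0.00117 and 0.0255), and Slc4a1 fell in its weaker probe set (adjusted p = 0.0476). The calls of Alas2 and Slc4a1 were lost after median centring (adjusted p = 0.0837 and 0.0720) and held in 10 and 2 of the 15 fits without 1 array, whereas that of Ppbp held in 15. Of 9 smooth muscle and pericyte markers 5 were above 0 and 0 were called, with 5 at an unadjusted p under 0.05, 4 higher and 1 lower. Acta2 stood at 0.77 (limma's adjusted p = 0.0755), and its weak other probe sets at 0.95 and -1.55. Tagln stood at 0.89 (adjusted p = 0.129) and the pericyte gene Rgs5 at -0.43 (adjusted p = 0.169) by limma. Their sums ran from 20045 to 24113 and from 19841 to 25032 units. The 8 macrophage and leukocyte markers had 4 above 0, 0 called and 1 at an unadjusted p under 0.05, with Cd68 at 0.48 (adjusted p = 0.322) and Ptprc at 0.44 (adjusted p = 0.437) and, below 0, Adgre1 at -0.18 and Itgam at -0.63. Their sums were 4596 to 6729 units against 4006 to 8739. The weakest markers were low, with a geometric mean of 27.0 units for Gp9 of platelets, 23.9 for Itgam of leukocytes and 21.4 for Bmp10 of the atria.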

How the data were processed

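Whole-heart RNA of 8 control and 7 heterozygous mice was measured on 1 array each. The deposited values are intensities, and GCRMA is the tool named in the submitters' processing notes. They were linear, from 0.1 to 80754.9, with a mean of 250.0 on every array after trimming 2% at each end, so how they were summarised is not given in the sources used here. Array medians were 56.7 to 94.2 units, and no scan dates were used. Signals were log2-transformed with no pseudocount. Probe sets with a log2 signal over 4 on at least 7 of 15 arrays, 38870 without the 64 control probe sets, were fitted with limma 3.58.1 in R 4.3.3 (group as the only term, two-sided, threshold 0.05) and checked on simulated arrays. For list genes the tested probe set with the highest mean was used, and genes were named by rule: every member, each list's genes called in any probe set and up to 2 with the smallest p, and the 3 most similar patterns. A few further ligands, partners and markers were named for their role after their values were seen. Tspan7 and Ccl21a were not analysed here. Members and lists were chosen with earlier results of these data known. Permutation tests, with 100000 permutations of arrays within groups, used scipy 1.17.1 in Python 3.11.15 and were added after seeing the data. Alternatives were the filter, scaling, a floor, array weights, a trended prior, a replicate block, the probe set rule, and leaving out each array.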

Additional observations from a re-analysis of the deposited data

Results flagged for a closer look

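Within a group, 11 of 106 sets of values examined (20 member probe sets and the named list genes, in each group) had an array set apart by a gap larger than Dixon's 95% limit on the log2 scale, where chance gives about 1 in 20. Of the 40 sets of the members 4 did so. Flt4 1444052_at reached 479.9 units on control array 1, above the next control at 387.4, and Flt4 1421442_at was at 73.6 units on control array 5, below the next at 139.2. Tek stood at 1108.7 units on heterozygous array 4, above 784.9, and Mmrn2 1420276_x_at at 854 units on heterozygous array 5, above 673.6.

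Among list genes, control array 6 was highest for Sln (406.7 units), Myl4 (1399.8) and Myl7 (1212.9). Heterozygous array 2 was highest for Pik3r1 (3634 units) and lowest for Pdgfra (489.6). Slc4a1 was at 11.6 units on heterozygous array 3 and Alas2 at 1253.6 on heterozygous array 6.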

How the results depend on the processing

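The number of probe sets called, 98, moved with most settings: 192 with the log2 filter at 6, 65 after median centring, 65 after quantile normalization, 461 with a floor at a log2 signal of 6, 312 with a trended and robust prior, and 17 (without control array 7) to 150 (without heterozygous array 7) with an array left out. The 5 list genes called became 9, 12 and 11 with the stricter filter, the floor and the trended prior, and 2 (without control array 3, 4 or 7 or heterozygous array 4) to 8 (without heterozygous array 2) with an array left out. Of the 20 member probe sets 1 was called, and with the floor 2, where Prox1 1421336_at (-0.63) joined Mmrn2 1437123_at. With the replicate block 1 probe set was called and 0 list genes, and the difference of Mmrn2 1437123_at was 1.31. Same-numbered arrays did not deviate together (correlations from -0.06 to 0.06, 0 of 7 pairs over 0.1, and 2 of 7 control arrays nearest to their own number), so the numbers give no pairing. The median difference of the 20 member probe sets, 0.17, lay between 0.10 and 0.22 with an array left out, but was 0.38 after median centring, 0.069 for the 10 brightest probe sets and -0.036 with the mean of the probe sets of each gene, and the median r between members, 0.25, became 0.60 after median centring. Among list genes, the directions that reversed were those of Mybpc3 (0.076) and Actn2 (0.090) after median centring and of Jam2 1436568_at without heterozygous array 4 (-0.020, with a highest value of 0.14 among the fits without 1 array). Among members, the sign turned after median centring for Flt1 1454037_a_at (0.054), Flt4 1444052_at (0.095) and Nos3 (0.087), after quantile normalization for Pecam1 (-0.013), and without the 4 arrays of high Actb ratio for Flt4 1444052_at (0.0084), Cdh5 1422047_at (0.053) and Nos3 (0.039). With an array left out, Pecam1 ran from -0.09 to 0.09 and Prox1 1457432_at from -0.02 to 0.40. The cause of these changes was not tested. The number of arrays and weak signals limit precision.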
